A study of Arabidopsis thaliana with 24 samples.

Results

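The comparison set rosettes grown from methyl jasmonate-treated seed against rosettes grown from water-treated seed, both harvested without pests. It uses 8 of the 24 libraries of the study, chosen by their treatment and control labels. They are 4 primed controls (seed treated with methyl jasmonate) and 4 not-primed controls (seed treated with H2O). All plants were wild-type (WT) Arabidopsis thaliana, the tissue was the rosette, and transcripts were counted by RNA sequencing. The other 16 libraries came from primed and not-primed plants that had carried a pest for 24 hours, either spider mites (Tetranychus urticae) or Pieris brassicae caterpillars, 4 libraries per group. They were used to see whether the priming difference recurred or differed under a pest, and in some alternative fits. The labels give no plant age, dose of methyl jasmonate, harvest time or batch. A harvest hour or batch that differed between the groups therefore cannot be told apart from priming. Nor do the labels say how many plants went into a replicate. The p-values therefore reflect only the spread among these libraries, which may be technical.

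Methyl jasmonate is the volatile methyl ester of jasmonic acid (JA), the wound hormone of plants. Inside the cell the active form is JA-isoleucine, which makes the receptor COI1 bind JAZ repressors and send them to degradation, freeing MYC transcription factors to switch on defence genes. A seed treatment acts long before the rosette is sampled, so an uninfested rosette shows what persists at rest. Leaves also tune transcription to their sugar supply. When sugar runs low, as late in the night, the kinase SnRK1 and its bZIP partners raise a set of dark-inducible and starvation genes and slow growth.

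Of the 32833 genes in the count table, 19057 passed the filter on low counts and were tested. Library totals were between 17798673 and 22084808 counts for the 8 controls. Levels are given as CPM, a count scaled to a common normalized library size, and differences as log2 fold changes of primed over not-primed plants ± standard error (SE), with n = 4 libraries per group. A gene counts as changed at a Benjamini-Hochberg adjusted p under 0.05 by edgeR's quasi-likelihood test over all tested genes, and the adjusted p-values quoted below come from that test. The 4 not-primed controls were not alike. On the first principal component, with 39.5% of the variance, not-primed replicates 1 and 2 lay at -51.9 and -39.7 and replicates 3 and 4 at 14.1 and 12.1. The 4 primed controls lay between 12.6 and 19.1. On the second component (18.9%) the primed controls lay between 11.9 and 16.7 and not-primed replicates 3 and 4 at -28.2 and -32.9. Results are therefore also given against not-primed replicates 1 and 2 and against replicates 3 and 4. Both of these comparisons use the same 4 primed libraries and are set side by side only. As a check on the tissue, the chlorophyll-binding protein gene LHCB1.3 lay between 12918 and 15413 CPM in all 8 libraries, 4 of 5 root marker genes had at most 18 counts in all 8 libraries together, and 4 of 8 flower and seed markers had at most 6.

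Priming went with 2080 changed genes in uninfested rosettes (10.9% of those tested), 1079 higher (5.66%) and 1001 lower (5.25%). Most differences were small, since 147 of the higher and 45 of the lower genes reached a fold of 2. In 3479 genes (18.3%) the 4 primed libraries lay all above (9.47%) or all below (8.79%) the 4 not-primed libraries, and 1994 of the changed genes were among them. Lack of overlap is therefore common to nearly all of the 2080 changed genes, and where given below it adds little to a call. Against not-primed replicates 1 and 2 alone 5010 genes were called (25.8%), and against replicates 3 and 4 alone 2134 (11%). Higher and lower genes made up 12.5% and 13.3% against replicates 1 and 2, and 5.34% and 5.62% against replicates 3 and 4. Counts in the gene lists below are to be set beside these shares. Of the 2080 changed genes, 1261 were called against both pairs with the same sign, which is 60.6%. A further 686 were called against replicates 1 and 2 only, 89 against replicates 3 and 4 only and 44 against neither. In 0 of the 2080 did the sign differ between the pairs. The primed mean lay between the means of the not-primed pairs in 6117 of all tested genes (32.1%) and in 0 of the changed ones. A call needs a difference that is large beside the spread of the not-primed controls. Both 0 counts therefore largely follow from the call and are no separate check. Leaving out a library changed the counts. The higher genes numbered 615, 675 and 685 without primed replicates 2, 3 and 4. The lower genes numbered 583 and 632 without not-primed replicates 1 and 2, and 621, 484, 537 and 505 without primed replicates 1 to 4.

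The largest differences were ranked among called genes that reached a mean of 5 CPM in either group and did not overlap between groups. Separate groups are therefore a condition of this choice and not a result. The most raised of these genes was BT2 (AT3G48360), which encodes a scaffold protein with BTB and TAZ domains that responds to sugar and nitrogen supply. It had 9.36, 18.8, 14.8 and 18.6 CPM in not-primed replicates 1 to 4, and 162, 169, 195 and 155 CPM in primed replicates 1 to 4. The groups were far apart, with a log2 fold change of 3.47 ± 0.18 (adjusted p = 8.64e-07), or 11.1-fold. Against not-primed replicates 1 and 2 the value was 3.60, and against replicates 3 and 4 it was 3.34. KMD1, an F-box protein that marks type-B cytokinin response regulators for degradation, had 24.7, 34.9, 31.9 and 36.9 CPM in not-primed replicates 1 to 4, and 152, 151, 160.3 and 154 CPM in primed replicates 1 to 4 (2.27 ± 0.11, adjusted p = 5.43e-07). Its relative KMD3 (AT2G44130) had 11.4, 12.3, 13.7 and 14.8 CPM in not-primed replicates 1 to 4, and 65.3, 62.7, 60.0 and 61.9 CPM in primed replicates 1 to 4 (2.26 ± 0.08). In both genes the groups did not overlap, as the choice required.

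TPS11, a class II trehalose-phosphate synthase protein, had 16.04, 20.7, 21.0 and 24.6 CPM in not-primed replicates 1 to 4, and 82.0, 96.3, 96.0 and 88.8 CPM in primed replicates 1 to 4 (2.14 ± 0.11). DIN1, the dark-inducible gene also known as a senescence marker, had 6.54, 10.2, 9.37 and 17.5 CPM in not-primed replicates 1 to 4, and 45.0, 51.9, 59.3 and 50.0 CPM in primed replicates 1 to 4 (2.24 ± 0.22). Not-primed replicate 4 was the highest of its group for both. The zinc finger protein gene ATCTH had 33.1, 40.8, 51.6 and 48.9 CPM in not-primed replicates 1 to 4, and 162, 169, 166 and 167 CPM in primed replicates 1 to 4 (1.93 ± 0.12). Primed replicates differed little here, while not-primed replicates 1 and 2 were lower than 3 and 4. AT2G20670, annotated by RefSeq as a putative sugar phosphate exchanger, and AT3G15450, annotated as an aluminum-induced protein, rose by 1.96 and 2.50. AT2G20670 had 87.6, 102, 85.7 and 108 CPM in not-primed replicates 1 to 4, and 372, 364, 399.5 and 359 CPM in primed replicates 1 to 4. AT3G15450 had 50.7, 65.9, 55.3 and 78.3 CPM in not-primed replicates 1 to 4, and 303, 342, 403 and 365 CPM in primed replicates 1 to 4. SIS, named for salt-induced expression, rose by 2.41 ± 0.23 from 1.08, 2.47, 3.23 and 2.68 CPM to 12.6, 12.9, 13.4 and 11.5 CPM, each in replicate order. The others among the 12 largest increases, taken over non-overlapping genes reaching a mean of 5 CPM in either group, were MEE14 (2.17), the zinc finger gene AT1G02610 (2.12) and AT3G15630 (1.99). All 12 were changed against both pairs of not-primed controls. AT3G43850, a weakly expressed gene, had 0.0470, 0.0967, 0.0469 and 0.188 CPM in not-primed replicates 1 to 4, and 0.611, 1.06, 0.966 and 0.990 CPM in primed replicates 1 to 4 (3.18 ± 0.48, adjusted p = 0.00186). These levels are near the floor. The alternative tool DESeq2 gave this gene no adjusted p, and the gene did not pass the filter on low counts under either pest.

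Decreases were smaller than increases among genes reaching a mean of 5 CPM in either group. Larger decreases were called in weaker genes below that mean. They included AT4G00070 (-2.47 ± 0.42, adjusted p = 0.004), AT5G26260 (-1.96 ± 0.25), AT4G26950 (-1.62 ± 0.29) and AZI1 (-1.46 ± 0.31), each without overlap. DESeq2 gave AT4G00070 no adjusted p. Among genes reaching 5 CPM the largest decrease was in CP1, a calcium-binding protein gene. It had 65.6, 63.7, 44.8 and 42.5 CPM in not-primed replicates 1 to 4. In primed replicates 1 to 4 it had 21.8, 19.5, 19.9 and 20.12 CPM (-1.41 ± 0.14, adjusted p = 9.9e-05). Not-primed replicates 1 and 2 were above replicates 3 and 4. ARR6, a type-A response regulator induced by cytokinin, had 20.2, 14.9, 12.9 and 14.7 CPM in not-primed replicates 1 to 4, and 5.39, 7.21, 7.24 and 7.09 CPM in primed replicates 1 to 4 (-1.22 ± 0.15). Primed replicate 1 was the lowest of the 8 libraries. BBX31, a small B-box protein of light signalling, had 11.1, 10.5, 10.96 and 10.99 CPM in not-primed replicates 1 to 4, and 5.75, 4.66, 3.43 and 5.33 CPM in primed replicates 1 to 4 (-1.19 ± 0.15), with the same difference against either pair (-1.18 and -1.20). AGP17, an arabinogalactan protein of the cell surface, had 74.8, 65.1, 36.4 and 42.7 CPM in not-primed replicates 1 to 4, and 26.9, 20.7, 25.8 and 27.8 CPM in primed replicates 1 to 4 (-1.12 ± 0.20). Its difference was -1.47 against not-primed replicates 1 and 2 and -0.65 against replicates 3 and 4. The methyl esterase gene MES18 fell by 1.2 ± 0.28, but against replicates 3 and 4 its value was -0.65 (adjusted p = 0.0675), and its call was also lost without primed replicate 1, 3 or 4 (adjusted p = 0.0579, 0.0562 and 0.0636). Of the 12 largest decreases, the remaining 7 had log2 fold changes between -1.17 for AT3G27540 and -1.08 for AT3G16670. Among these the calls of AT3G16670 and AT4G34950 were lost without primed replicate 4 (adjusted p = 0.0563) and primed replicate 2 (0.0531).

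**Figure D1:**
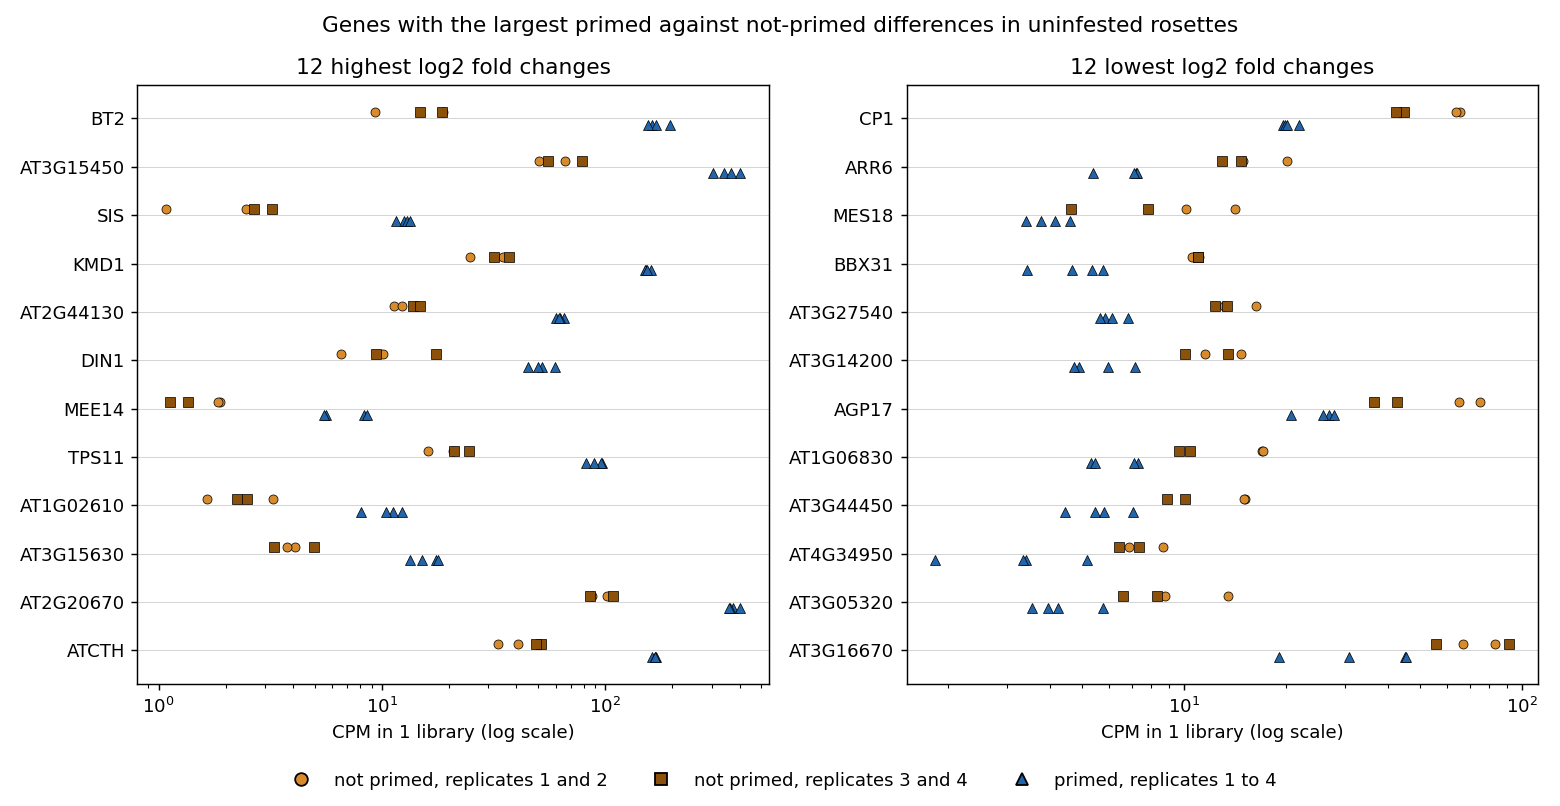
Levels in each of the 8 control libraries for the 12 largest increases (left) and 12 largest decreases (right) among changed genes reaching a mean of 5 CPM in either group, on a log scale of CPM. Circles and squares are not-primed replicates 1 and 2 and replicates 3 and 4, triangles are the primed replicates; groups without overlap were a condition of the choice. BT2 goes from 9.36 to 18.8 CPM without priming to 155 to 195 CPM with it, while CP1 goes from 42.5 to 65.6 CPM to 19.5 to 21.8 CPM.

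Genes that rise in darkness and low sugar were higher in primed rosettes nearly throughout. Of 21 listed genes, all tested, 19 were higher and 0 lower, with a median log2 fold change of 1.23, against 5.66% higher and a median of 0.00531 over all tested genes. The count was 19 higher and 1 lower against not-primed replicates 1 and 2, and 17 higher against replicates 3 and 4 (5.34% of all tested genes were higher there), where the median was 1.17. Leaving out any 1 library left 16 or 18 higher, and 1 lower without not-primed replicate 3 or 4. Summed over the list, the levels were between 912 and 1160 CPM in not-primed and between 2318 and 2504 CPM in primed libraries. This list and all other gene lists below were drawn up with earlier results of these data known. Their directions and counts, in controls or under a pest, are therefore not independent evidence.

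The list also held BT1 and BT5, relatives of BT2. BT1 had 109.7, 135, 95.8 and 107 CPM in not-primed replicates 1 to 4, and 305, 311, 324 and 303 CPM in primed replicates 1 to 4 (1.47 ± 0.09). BT5 had 73.5, 92.7, 76.2 and 85.3 CPM in not-primed replicates 1 to 4, and 204, 198, 214 and 247 CPM in primed replicates 1 to 4 (1.40 ± 0.09). Neither overlapped between groups, and in BT1 not-primed replicate 2 was the highest of its group. Besides TPS11 the list held TPS8, TPS9 and TPS10, of the same class of trehalose-phosphate synthase proteins. TPS8 had 62.3, 66.1, 75.9 and 76.9 CPM in not-primed replicates 1 to 4, and 201, 219, 216 and 219 CPM in primed replicates 1 to 4 (1.60 ± 0.08), TPS9 rose by 1.33 ± 0.07 and TPS10 by 0.87 ± 0.12. Since the handling of reads shared by related genes is not given in the sources used here, values of close relatives may hold some of each other's reads. KMD4 had 95.2, 97.6, 92.2 and 100.3 CPM in not-primed replicates 1 to 4, and 222, 244, 208 and 231 CPM in primed replicates 1 to 4 (1.23 ± 0.06), with values of 1.23 and 1.23 against the pairs of not-primed controls. AKINBETA1, a regulatory subunit of SnRK1, had 19.99, 25.9, 20.5 and 25.1 CPM in not-primed replicates 1 to 4, and 42.9, 51.2, 50.3 and 45.1 CPM in primed replicates 1 to 4 (1.05 ± 0.10). The wall sugar hydrolase genes BXL1 and BGAL4 rose by 1.0 ± 0.11 and 1.21 ± 0.26, the dormancy-associated gene DYL1 by 1.28 ± 0.16 and the raffinose synthase family gene DIN10 by 0.87 ± 0.14.

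The asparagine synthetase gene ASN1, a classic starvation gene, had the widest gap between the pairs of controls within this list. It had 6.11, 5.12, 12.8 and 25.1 CPM in not-primed replicates 1 to 4, and 26.9, 25.8, 38.1 and 34.3 CPM in primed replicates 1 to 4 (1.35 ± 0.39, adjusted p = 0.0469). Not-primed replicate 4 came close to primed replicate 2, and the difference was 2.47 against replicates 1 and 2 but 0.72 against replicates 3 and 4. BZIP63, a transcription factor that SnRK1 phosphorylates, rose by 0.41 ± 0.08, DIN3 by 0.38 ± 0.10 and KMD2 by 0.65 ± 0.16. Against replicates 3 and 4 DIN3 (0.26, adjusted p = 0.143) and KMD2 (0.37, adjusted p = 0.11) were not called. The 2 list members without a call were DIN9 (0.00 ± 0.14, adjusted p = 0.997) and the factor gene BZIP2 (-0.30 ± 0.09, adjusted p = 0.0636).

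**Figure D2:**
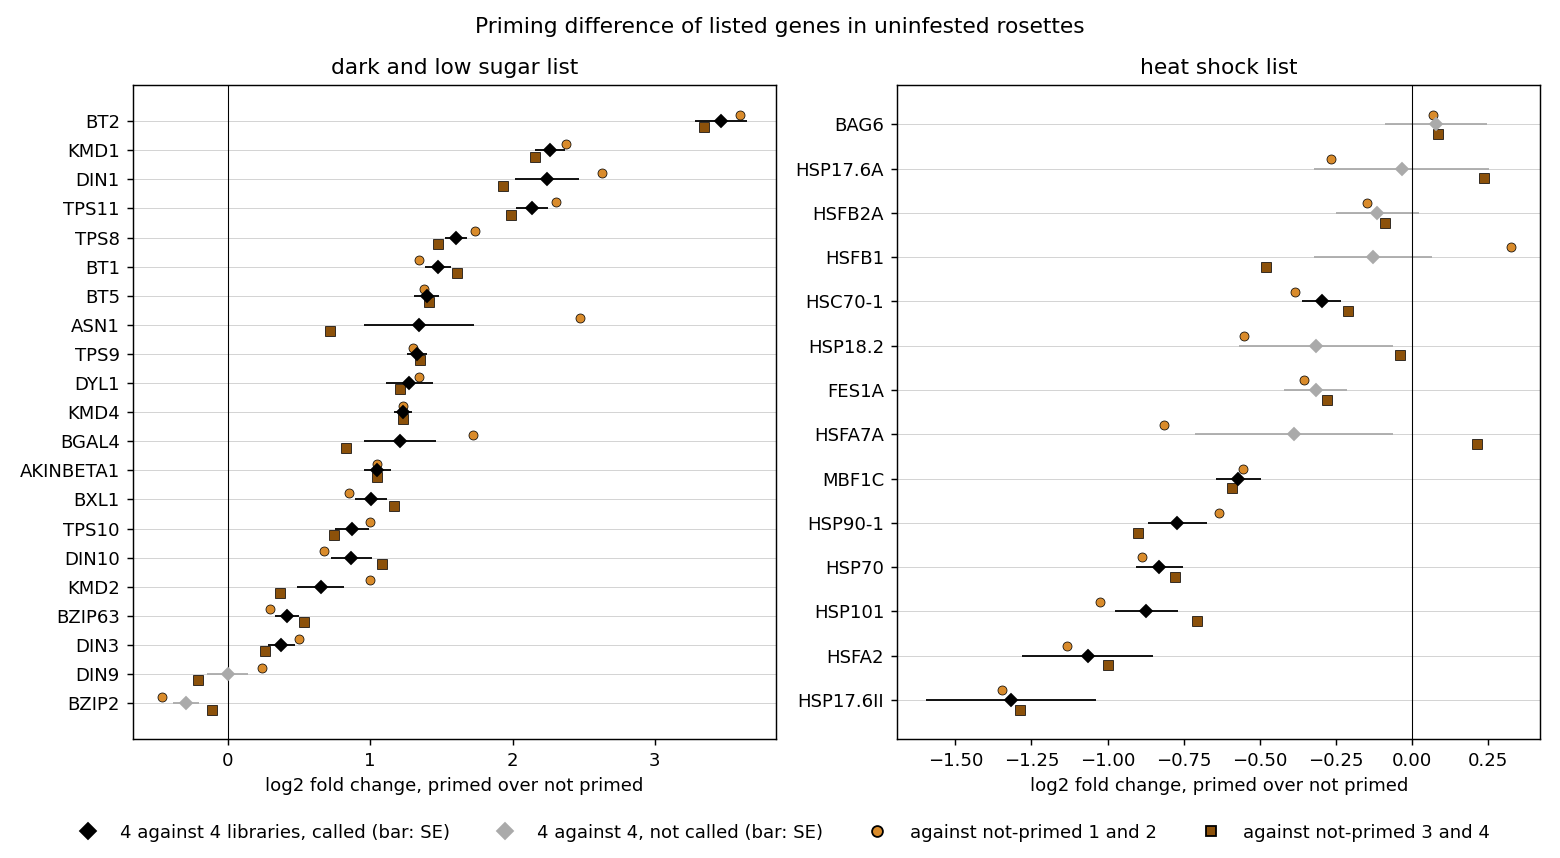
Log2 fold change of primed over not-primed controls for each tested gene of the dark and low sugar list (left) and the heat shock list (right). Diamonds use all 8 libraries with SE bars (black where called), circles and squares use not-primed replicates 1 and 2 or 3 and 4 alone. On the left 19 of 21 diamonds are black and to the right of 0, and on the right 7 of 14 are black and to the left of 0.

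The stretch before the start of 3 strongly raised genes is shown as a description, and the 3 do not stand for the list. The 250 bases upstream of the RefSeq gene start (assembly TAIR10.1) were searched on both strands for the letters TATCCA, the sugar-response element known from cereal amylase genes, for AAATATCT, a form of the evening element of clock-regulated genes, and for ACGTG, found in the G-box and in ABA response elements. None of these motifs shares letters with another in the sequences shown, and capitals mark the matches to any of them in either orientation. BT2 lies on the minus strand with this stretch at chr3:17910739-17910988, KMD1 on the plus strand at chr1:30241202-30241451 and TPS11 on the plus strand at chr2:8108648-8108897, each read 5′ to 3′ along the gene.
BT2: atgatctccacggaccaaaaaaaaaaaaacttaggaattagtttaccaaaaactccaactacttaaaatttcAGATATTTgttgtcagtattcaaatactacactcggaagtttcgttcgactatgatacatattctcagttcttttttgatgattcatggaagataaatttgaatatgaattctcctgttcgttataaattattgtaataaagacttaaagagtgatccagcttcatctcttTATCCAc
KMD1: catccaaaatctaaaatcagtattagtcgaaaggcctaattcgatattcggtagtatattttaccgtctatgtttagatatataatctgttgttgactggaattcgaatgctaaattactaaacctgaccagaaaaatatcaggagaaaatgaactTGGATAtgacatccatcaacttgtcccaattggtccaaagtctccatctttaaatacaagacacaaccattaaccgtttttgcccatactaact
TPS11: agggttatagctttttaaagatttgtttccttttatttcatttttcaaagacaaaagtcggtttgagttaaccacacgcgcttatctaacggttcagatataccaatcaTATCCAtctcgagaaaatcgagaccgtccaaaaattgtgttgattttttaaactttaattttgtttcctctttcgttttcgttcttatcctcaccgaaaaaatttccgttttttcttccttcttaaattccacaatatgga
TATCCA was found in 7 of the 21 list members (33.3%), namely BT2, BT5, KMD1, TPS10, TPS11, ASN1 and AKINBETA1, against 14.3% of the 18496 tested genes with such a stretch. All 3 genes shown are among these 7. DIN1, TPS8, BT1, KMD4 and DYL1, also raised, had no TATCCA in this stretch. TATCCA was present in 19.7% of the stretches of higher genes and 14.1% of those of lower genes. ACGTG was in 19.0% of the list, in 29.6% of higher and 20.3% of lower genes, and in 23.4% of tested genes. AAATATCT was in 14.3% of the list, in 6.31% of higher and 6.34% of lower genes, and in 4.83% of tested genes. A match to letters is a description and not a site of binding.

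Sugar falls through the night and clock genes mark the hour, so clock gene levels are given beside this result. Of 15 tested clock genes 3 were higher and 1 lower, with a median of -0.11, and the list summed to between 2342 and 2748 CPM in not-primed and between 2518 and 2610 CPM in primed libraries. CCA1, which peaks at dawn, had 465, 484, 422 and 442 CPM in not-primed replicates 1 to 4, and 449, 432, 422 and 432 CPM in primed replicates 1 to 4, so that the groups overlapped (-0.06 ± 0.06, adjusted p = 0.521). Its dawn partner LHY differed by -0.18 ± 0.06 (adjusted p = 0.0966) and the evening gene TOC1 by 0.20 ± 0.10 (adjusted p = 0.221). RVE1, a MYB factor that links the clock to auxin, had 77.3, 90.2, 77.9 and 82.2 CPM in not-primed replicates 1 to 4, and 148, 149, 152 and 161 CPM in primed replicates 1 to 4 (0.90 ± 0.06), without overlap. PRR7 rose by 0.29 ± 0.06 and RVE4 by 0.20 ± 0.05, and PRR9 fell by 0.56 ± 0.13. The clock list had 0 lower without primed replicate 1 or 4, and 2 lower without primed replicate 3. Against not-primed replicates 1 and 2 it had 3 higher and 6 lower (median -0.14), and against replicates 3 and 4 it had 3 higher and 0 lower (median 0.063), where PRR9 was at -0.33 (adjusted p = 0.0636). The part of harvest time in the dark and low sugar result was not tested.

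Heat shock genes, which encode chaperones and the factors that induce them, were lower or not called. Of 14 tested genes 7 were lower and 0 higher, with a median of -0.35, where 5.25% of all tested genes were lower. The count was 9 lower against not-primed replicates 1 and 2, 8 against replicates 3 and 4, and 6 or 7 when 1 library was left out. HSP70 had 454, 559, 427 and 508 CPM in not-primed replicates 1 to 4, and 278, 271, 271 and 276 CPM in primed replicates 1 to 4 (-0.83 ± 0.08, adjusted p = 7.66e-05). The primed libraries lay within a narrow range below all 4 not-primed ones. HSP101, the disaggregase needed for heat tolerance, had 33.0, 32.8, 23.5 and 29.0 CPM in not-primed replicates 1 to 4, and 17.0, 15.9, 15.6 and 16.1 CPM in primed replicates 1 to 4 (-0.87 ± 0.10). HSP90-1 had 72.1, 96.0, 96.6 and 105 CPM in not-primed replicates 1 to 4, and 54.5, 54.8, 55.2 and 52.4 CPM in primed replicates 1 to 4 (-0.77 ± 0.10), also without overlap. The factor gene HSFA2 (-1.06 ± 0.21), the small heat shock gene HSP17.6II (-1.32 ± 0.28), the co-activator gene MBF1C (-0.57 ± 0.07) and the constitutive chaperone gene HSC70-1 (-0.30 ± 0.06) fell as well. In HSP17.6II the groups overlapped, with 5.64 CPM in not-primed replicate 1 and 5.75 CPM in primed replicate 1. Members without a call included HSP18.2 (-0.32 ± 0.25, adjusted p = 0.471) and BAG6 (0.08 ± 0.17, adjusted p = 0.812).

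Abscisic acid (ABA) and dehydration genes were higher in 10 of 20 tested cases and lower in 1 (5.66% and 5.25% of all tested genes), with a median of 0.35. Against not-primed replicates 1 and 2 there were 13 higher and 2 lower (median 0.52). Against replicates 3 and 4 there were 9 higher and 1 lower (median 0.215). The count of higher genes was 6 without primed replicate 1, 2 or 4, and the lower genes were 2 without not-primed replicate 3. P5CS1, which makes proline under drought, had 46.6, 53.6, 85.7 and 79.2 CPM in not-primed replicates 1 to 4, and 200.3, 180.4, 173 and 183 CPM in primed replicates 1 to 4 (1.47 ± 0.17, adjusted p = 0.000289). The groups did not overlap, and not-primed replicates 1 and 2 were the lowest. NCED3, which starts ABA synthesis, rose by 0.94 ± 0.19, from 2.63, 4.16, 4.36 and 4.79 CPM to 6.77, 9.32, 7.53 and 6.98 CPM in replicate order. The ABA-responsive factor gene ABF3 had 56.5, 57.3, 53.4 and 62.2 CPM in not-primed replicates 1 to 4, and 86.4, 86.2, 75.8 and 74.1 CPM in primed replicates 1 to 4 (0.49 ± 0.07). RD26, a NAC factor gene, rose by 1.19 ± 0.28, RAB18 by 0.73 ± 0.15 and the phosphatase gene PP2CA by 0.47 ± 0.08. PYL4, an ABA receptor gene, was the member that fell (-1.0 ± 0.19), with 81.5, 70.7, 41.8 and 43.8 CPM in not-primed replicates 1 to 4, and 33.4, 27.7, 29.4 and 28.4 CPM in primed replicates 1 to 4.

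Among 11 tested senescence genes and stress NAC factors 4 were higher and 0 lower (5.66% and 5.25% of all tested genes). The higher genes numbered 2 without primed replicate 2 or 3. Against not-primed replicates 1 and 2 there were 9 higher and 1 lower (median 0.945), and against replicates 3 and 4 there were 5 higher and 1 lower (median 0.18). NAP, a factor that drives leaf senescence, had 6.30, 8.46, 13.4 and 11.7 CPM in not-primed replicates 1 to 4, and 37.8, 38.5, 32.4 and 31.4 CPM in primed replicates 1 to 4 (1.81 ± 0.18). ORE1 rose by 1.43 ± 0.32, NAC055 by 1.81 ± 0.41 and ATAF1 by 0.55 ± 0.09. The chlorophyll breakdown genes did not pass, with SGR1 at 0.26 ± 0.09 (adjusted p = 0.0755), NYC1 at -0.18 ± 0.07 (adjusted p = 0.0978) and PAO at 0.09 ± 0.11 (adjusted p = 0.635). NAP, ORE1, NAC055 and ATAF1 were each above all not-primed libraries in all 4 primed ones.

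Growth hormone genes moved in part. Over all tested genes 5.66% were higher and 5.25% lower. Of 19 auxin genes 5 were higher and 2 lower. Against not-primed replicates 1 and 2 there were 5 higher and 2 lower auxin genes. Against replicates 3 and 4 there were 8 higher and 0 lower. IAA4 had 47.5, 54.5, 52.5 and 50.9 CPM in not-primed replicates 1 to 4, and 74.9, 79.3, 87.0 and 84.1 CPM in primed replicates 1 to 4 (0.66 ± 0.07), and the auxin carrier gene PIN3 had 155, 179, 169.6 and 170.4 CPM in not-primed replicates 1 to 4, and 222, 219, 229.8 and 224 CPM in primed replicates 1 to 4 (0.41 ± 0.06). IAA14 rose by 0.71 ± 0.11 and IAA1 by 0.53 ± 0.09, while IAA6 (-0.81 ± 0.19, adjusted p = 0.0191) and IAA3 (-0.37 ± 0.09, adjusted p = 0.0239) fell. Neither was called against not-primed replicates 3 and 4 (IAA6 -0.45, adjusted p = 0.131, and IAA3 -0.23, adjusted p = 0.0675). The lower auxin genes numbered 0 without not-primed replicate 1 or primed replicate 1 or 2, and 1 without not-primed replicate 2 or primed replicate 3. Of 12 cytokinin genes 3 were lower and 1 higher. The counts were 6 lower and 1 higher against replicates 1 and 2, and 3 lower and 1 higher against replicates 3 and 4. ARR4 had 148, 145, 127 and 127 CPM in not-primed replicates 1 to 4, and 103, 106, 101 and 107 CPM in primed replicates 1 to 4 (-0.39 ± 0.07), the cytokinin synthesis gene IPT3 fell by 0.59 ± 0.12 and ARR9 rose by 0.30 ± 0.06. The lower cytokinin genes numbered 5 without not-primed replicate 3. Of 19 brassinosteroid and gibberellin genes 6 were higher and 0 lower against all 4 not-primed controls. The counts were 6 higher and 3 lower against replicates 1 and 2, and 5 higher and 1 lower against replicates 3 and 4. Between 2 and 5 were higher when 1 library was left out. They numbered 3 without not-primed replicate 1 or 3 or primed replicate 1 or 3, and 2 without primed replicate 2 or 4. GASA6, a gibberellin-regulated cell wall peptide gene, had 52.1, 75.8, 65.6 and 49.0 CPM in not-primed replicates 1 to 4, and 105, 127, 147 and 111 CPM in primed replicates 1 to 4 (1.01 ± 0.14), and its relative GASA4 rose by 0.54 ± 0.10. RGL2, a DELLA repressor of gibberellin signalling that was not on that list and was named for its size of change in all 3 states, had 16.8, 14.3, 15.8 and 11.9 CPM in not-primed replicates 1 to 4, and 7.84, 5.93, 8.35 and 6.38 CPM in primed replicates 1 to 4 (-1.04 ± 0.14).

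Of 22 cell expansion genes 5 were higher and 3 lower (5.66% and 5.25% of all tested genes), and the list median was 0.09. Against not-primed replicates 1 and 2 there were 8 higher and 5 lower (median 0.060). Against replicates 3 and 4 there were 6 higher and 3 lower (median 0.205). The expansin gene EXPA8 had 58.9, 84.5, 83.1 and 59.0 CPM in not-primed replicates 1 to 4, and 119.5, 137, 136 and 114 CPM in primed replicates 1 to 4 (0.82 ± 0.13), and EXPA11 rose by 0.78 ± 0.14. XTH24, a xyloglucan-modifying enzyme gene, had 128, 138, 128 and 145 CPM in not-primed replicates 1 to 4, and 104, 106, 88.6 and 100.1 CPM in primed replicates 1 to 4 (-0.44 ± 0.07). Higher genes numbered 3 without not-primed replicate 1 or primed replicate 2 or 3, and lower genes 5 without not-primed replicate 4 and 1 without primed replicate 2. In the list of 21 cell division and leaf growth genes, edgeR called 0 in either direction against all 4 controls and against each pair, with a median of -0.11. SOC1, a floral integrator gene, had 24.9, 23.4, 25.0 and 22.6 CPM in not-primed replicates 1 to 4, and 36.9, 38.1, 33.7 and 39.9 CPM in primed replicates 1 to 4 (0.63 ± 0.07). NIA1, a nitrate reductase gene, had 104, 145, 119 and 128 CPM in not-primed replicates 1 to 4, and 253, 244, 233 and 173 CPM in primed replicates 1 to 4 (0.86 ± 0.12), and the nitrate transporter gene NRT1.1 had 104, 100.3, 96.8 and 113 CPM in not-primed replicates 1 to 4, and 74.8, 72.0, 69.7 and 76.4 CPM in primed replicates 1 to 4 (-0.50 ± 0.06). NIA1, NRT1.1 and SOC1 did not overlap between the groups.

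Of 17 tested flavonoid and anthocyanin genes 4 were lower and 1 higher (5.25% and 5.66% of all tested genes), with a median of -0.46. Against not-primed replicates 1 and 2 the list had 2 higher and 5 lower (median 0.30), and against replicates 3 and 4 it had 1 higher and 15 lower (median -0.88). Chalcone synthase (CHS), the entry enzyme, had 376, 380.3, 362 and 402 CPM in not-primed replicates 1 to 4, and 303, 259, 259 and 286 CPM in primed replicates 1 to 4 (-0.46 ± 0.07). F3H (-0.47 ± 0.08), FLS1 (-0.52 ± 0.10) and CHIL (-0.41 ± 0.09) fell too, and CHS, F3H, FLS1 and CHIL were called against both pairs. MYBL2, a MYB repressor of anthocyanin genes, had 19.5, 26.1, 26.7 and 27.5 CPM in not-primed replicates 1 to 4, and 48.9, 54.5, 55.8 and 55.1 CPM in primed replicates 1 to 4 (1.1 ± 0.10). DFR, a later enzyme, did not pass. It had 17.9, 7.01, 41.6 and 49.7 CPM in not-primed replicates 1 to 4, and 15.6, 18.6, 19.5 and 30.7 CPM in primed replicates 1 to 4 (-0.47 ± 0.45, adjusted p = 0.566), and its difference was 0.75 against not-primed replicates 1 and 2 and -1.12 against replicates 3 and 4. LDOX, the next enzyme, had values of 0.53 and -1.07. In the phenylpropanoid and lignin list 3 of 17 were lower and 1 higher. It had 8 lower and 2 higher against replicates 1 and 2 (13.3% and 12.5% of all tested genes). Against replicates 3 and 4 it had 4 lower and 2 higher (5.62% and 5.34% of all). PAL1 (-0.33 ± 0.06) and 4CL3 (-0.62 ± 0.08) were among those that fell, and PAL4 rose by 0.51 ± 0.10.

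Jasmonate and salicylic acid (SA) defence genes showed no priming difference that held against both pairs of not-primed controls, apart from single members. Of 15 JA synthesis genes edgeR called 0 against all 4 controls, and 1 was higher without not-primed replicate 3 or 4. Against replicates 1 and 2 alone 11 were higher (12.5% of all tested genes were), and against replicates 3 and 4 alone 8 were lower (5.62% of all were). For JA output of the MYC branch these counts were 0 of 9 called, 5 higher and 7 lower, and for SA genes 1 of 23 higher, 16 higher and 6 lower. Aliphatic glucosinolate synthesis had 1 of 22 lower against all 4, 5 higher against replicates 1 and 2, and 18 lower against replicates 3 and 4. Camalexin genes had 0 of 5 called, 4 higher and 2 lower. The median log2 fold changes were 0.71 and -0.42 for JA synthesis, 1.73 and -1.03 for the MYC branch and 1.13 and -0.53 for SA, against replicates 1 and 2 and replicates 3 and 4 in that order.

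VSP2, a vegetative storage protein gene and standard JA marker, had 147, 43.2, 475 and 639 CPM in not-primed replicates 1 to 4, and 214, 165, 278 and 604 CPM in primed replicates 1 to 4 (-0.05 ± 0.64, adjusted p = 0.973). Replicates 3 and 4 without priming were high, replicates 1 and 2 low, and the primed libraries lay across the range between. LOX2, the 13-lipoxygenase gene of JA synthesis, had 468, 218, 1277 and 1807 CPM in not-primed replicates 1 to 4, and 922, 599, 711 and 1138 CPM in primed replicates 1 to 4 (-0.16 ± 0.49, adjusted p = 0.874). MYC2, the main JA transcription factor gene, had 69.7, 40.6, 131 and 142 CPM in not-primed replicates 1 to 4, and 89.6, 84.6, 79.0 and 93.8 CPM in primed replicates 1 to 4 (-0.14 ± 0.30, adjusted p = 0.809). All 4 primed values of MYC2 lay between the not-primed pairs. The SA marker PR1 had 0.235, 5.75, 18.3 and 15.7 CPM in not-primed replicates 1 to 4, and 7.12, 6.15, 12.5 and 5.06 CPM in primed replicates 1 to 4 (-0.37 ± 0.68, adjusted p = 0.779). ICS1, which makes most SA, had 9.92, 10.8, 25.2 and 22.3 CPM in not-primed replicates 1 to 4, and 20.4, 22.8, 21.3 and 16.2 CPM in primed replicates 1 to 4 (0.24 ± 0.27, adjusted p = 0.62). PAD3, the last enzyme of camalexin synthesis, had 0.329, 1.11, 22.4 and 15.6 CPM in not-primed replicates 1 to 4, and 9.87, 15.0, 13.8 and 8.63 CPM in primed replicates 1 to 4 (0.26 ± 0.76, adjusted p = 0.869). Replicates 1 and 2 without priming were at most 1.11 CPM there, far below every other library. The repressor gene JAZ10 (-0.55 ± 0.43, adjusted p = 0.46) and the glucosinolate genes CYP79F1 (-0.06 ± 0.22, adjusted p = 0.895) and CYP79B2 (-0.22 ± 0.31, adjusted p = 0.704) did not pass either. The defensin gene PDF1.2a was too weak to test, with 5, 0, 43 and 26 counts in not-primed replicates 1 to 4 and 10, 5, 3 and 5 counts in primed replicates 1 to 4.

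**Figure D3:**
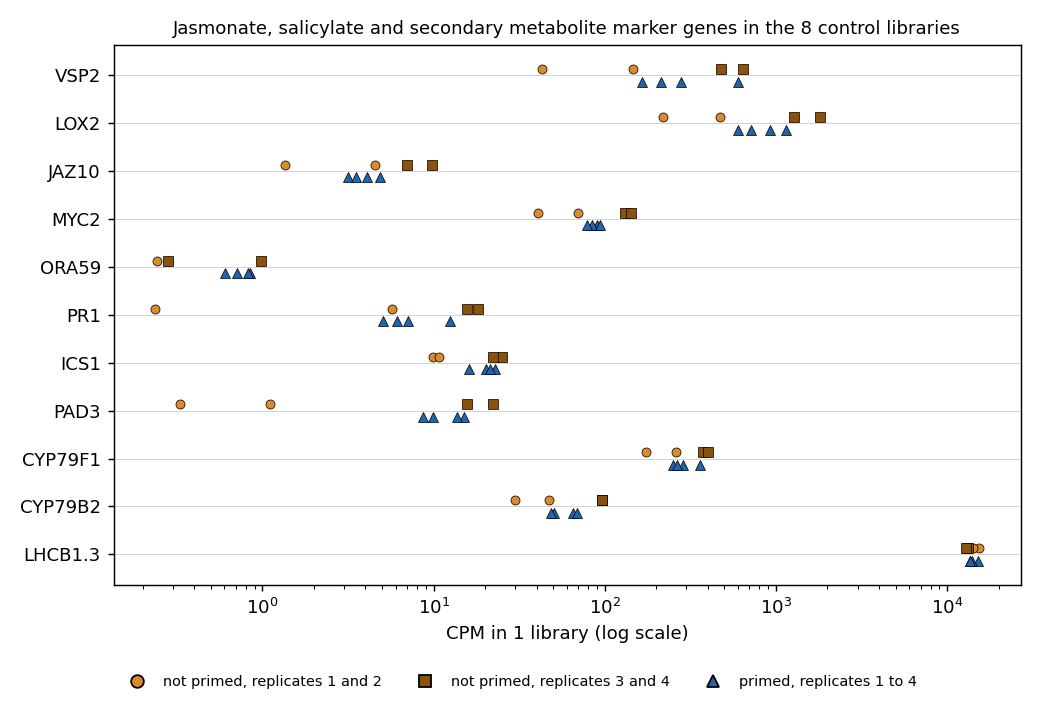
Levels in each of the 8 control libraries for JA, SA, camalexin, glucosinolate and photosynthesis marker genes, on a log scale of CPM, with the symbols of the plot of the largest differences. For VSP2, LOX2, MYC2, PR1, ICS1 and PAD3 not-primed replicates 3 and 4 lie above replicates 1 and 2.

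MYC4, ERF104, WRKY22, MYB34, PEN2 and ESM1 were called against both pairs with the same sign. MYC4, a MYC factor gene of glucosinolate regulation, had 58.8, 58.8, 51.8 and 59.1 CPM in not-primed replicates 1 to 4, and 47.3, 39.4, 42.1 and 43.6 CPM in primed replicates 1 to 4 (-0.41 ± 0.07, adjusted p = 0.0044), which was -0.45 and -0.37 against the pairs. The ethylene-responsive factor gene ERF104 had 3.15, 4.06, 4.26 and 4.18 CPM in not-primed replicates 1 to 4, and 8.60, 5.03, 7.24 and 12.5 CPM in primed replicates 1 to 4 (1.09 ± 0.24), and primed replicate 4 was highest. Its relative ERF6 was called at 1.14 ± 0.29 (adjusted p = 0.0272), but not without not-primed replicate 2 or 4 or primed replicate 1 or 4 (adjusted p between 0.0537 and 0.0789), and against neither pair (adjusted p = 0.0575 against replicates 1 and 2, 0.0796 against replicates 3 and 4). The ERF branch of JA output thus had 2 of 7 higher (median 0.598), and 1 without each of those 4 libraries. It had 3 higher without not-primed replicate 3. Against replicates 1 and 2 it had 4 higher (median 1.17), where 12.5% of all tested genes were higher. Against replicates 3 and 4 it had 1 higher and 1 lower (median 0.23), beside 5.34% and 5.62% of all. Under mites 6 of the 7 were higher (median 0.851), beside 4.54% of all, and under caterpillars 0 were called (median 0.452). WRKY22, of pattern-triggered immunity, had 3.15, 4.06, 2.95 and 3.15 CPM in not-primed replicates 1 to 4, and 6.46, 6.25, 5.21 and 6.98 CPM in primed replicates 1 to 4 (0.90 ± 0.16). MYB34, an activator of indole glucosinolate genes, had 30.7, 31.2, 33.0 and 36.9 CPM in not-primed replicates 1 to 4, and 19.5, 25.1, 17.5 and 22.9 CPM in primed replicates 1 to 4 (-0.63 ± 0.11), and PEN2, the myrosinase of pathogen defence, had 41.9, 47.1, 46.7 and 40.3 CPM in not-primed replicates 1 to 4, and 61.7, 59.0, 56.7 and 57.7 CPM in primed replicates 1 to 4 (0.42 ± 0.07). ESM1, a modifier of glucosinolate breakdown, had 1096, 1146, 931 and 959.8 CPM in not-primed replicates 1 to 4, and 835, 737, 778 and 753 CPM in primed replicates 1 to 4 (-0.41 ± 0.07). The weak calls of NPR4 (0.25), MYB51 (0.57), BCAT3 (-0.18) and the DNA demethylase gene ROS1 (0.24) were each lost in at least 5 of the 8 fits that left out 1 library. NPR4, MYB51 and ROS1 were not called against replicates 3 and 4 (adjusted p = 0.122, 0.143 and 0.153), nor BCAT3 against replicates 1 and 2 (adjusted p = 0.0668).

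**Figure D4:**
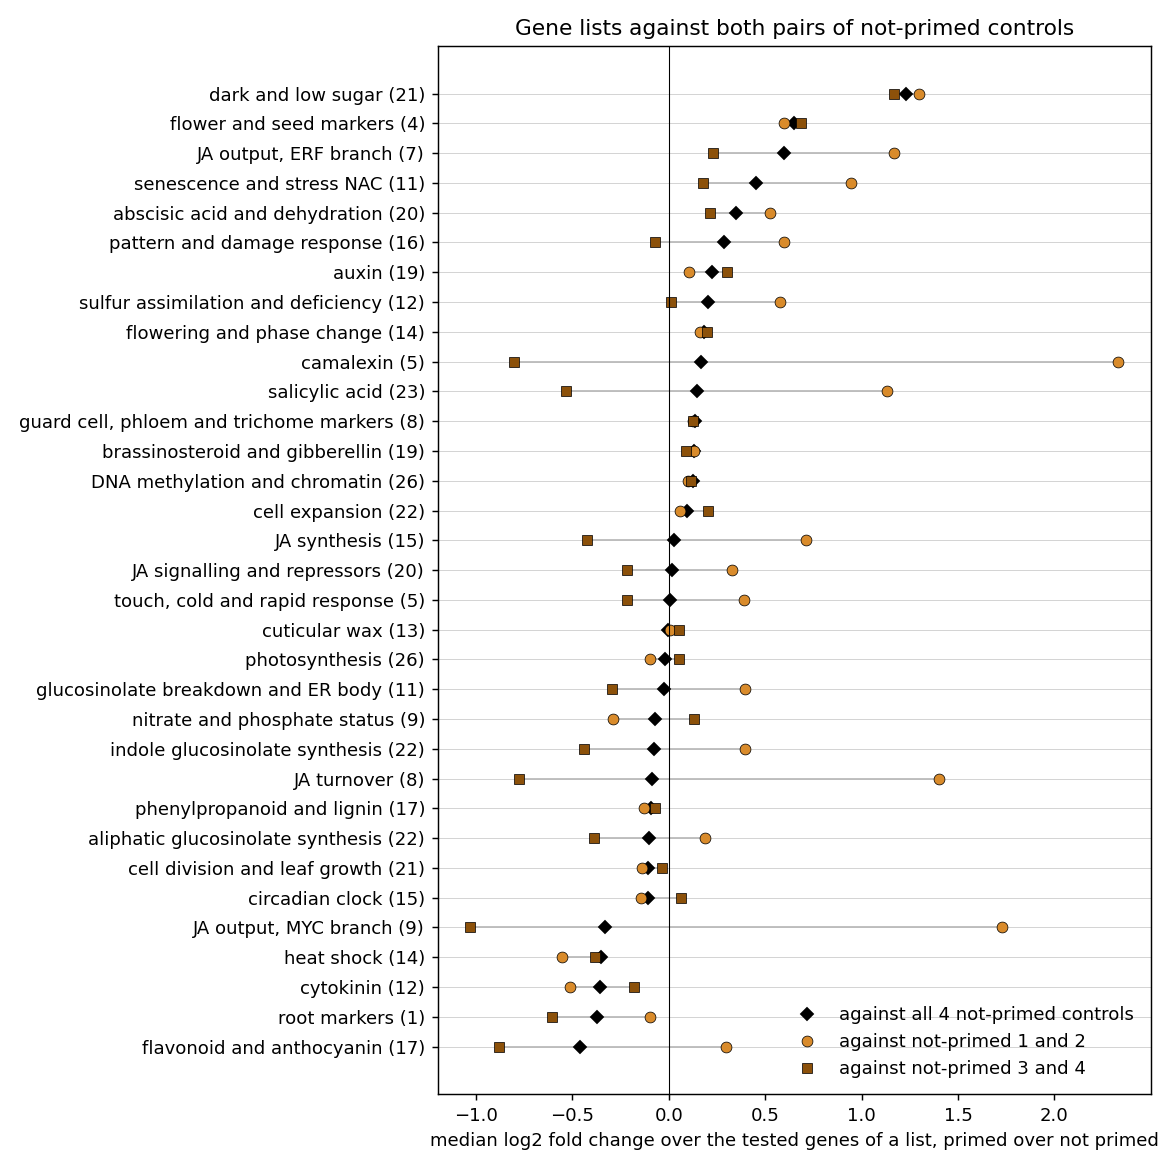
Median log2 fold change of primed over not-primed controls over the tested genes of each of 33 gene lists (number tested in brackets), with all 4 not-primed controls (diamonds), replicates 1 and 2 (circles) or replicates 3 and 4 (squares). The dark and low sugar list is at 1.23, 1.3 and 1.17, while the JA synthesis, JA MYC branch, SA, camalexin, flavonoid and photosynthesis lists, among others, have circles and squares on opposite sides of 0.

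Photosynthesis genes depended on the controls. Of 26 tested 1 was higher (LHCB2.3, 0.26 ± 0.07) and 1 lower (RBCS1B, -0.64 ± 0.14), near the 5.66% and 5.25% of all tested genes. The list median was -0.02. Against not-primed replicates 1 and 2 there were 3 higher and 12 lower (median -0.099), and against replicates 3 and 4 there were 7 higher and 1 lower (median 0.055). RBCS1B had 3040.0, 3091, 1963 and 1981 CPM in not-primed replicates 1 to 4, and 1731, 1531, 1608 and 1601 CPM in primed replicates 1 to 4, and its call was lost without primed replicate 2, 3 or 4 (adjusted p = 0.0585, 0.0524 and 0.0513). The call of LHCB2.3 was lost in 5 of the 8 fits that left out 1 library. The lower genes numbered 4 without not-primed replicate 3 and 5 without replicate 4. Guard cell, phloem and trichome markers had 1 of 8 higher (GL2, 0.39 ± 0.11) and 1 lower (AT1G22690, -0.51 ± 0.09), and summed to between 297 and 314 CPM in not-primed and 306 and 339 CPM in primed libraries. The root marker PYK10, which rosettes also express, had 210.3, 190.0, 269 and 298 CPM in not-primed replicates 1 to 4, and 171, 164, 192 and 221 CPM in primed replicates 1 to 4 (-0.37 ± 0.14, adjusted p = 0.112). The call of GL2 was lost in 6 of the 8 fits that left out 1 library and against not-primed replicates 3 and 4 (0.23, adjusted p = 0.2). In a rosette sample, fewer cells of a type and less RNA per cell cannot be told apart. Of 12 sulfur genes 2 were higher and 1 lower, with APR3 at 0.57 ± 0.09 and APR2 at -0.31 ± 0.07, and the call of APR2 was lost without primed replicate 2 or 3 (adjusted p = 0.0624 and 0.0617). Of 13 wax genes CER1 rose by 0.77 ± 0.09 and KCS1 fell by 0.60 ± 0.12. Against all 4 not-primed controls, JA signalling had 1 lower of 20, JA turnover 0 of 8 called, pattern response 1 higher of 16, indole glucosinolate synthesis 1 higher and 1 lower of 22, and glucosinolate breakdown 1 higher and 1 lower of 11. Flowering had 2 higher of 14, nitrate and phosphate status 2 higher and 1 lower of 9, DNA methylation 1 higher of 26, touch and cold response 0 of 5 called, and flower and seed markers 0 of 4 called. Several of these lists had other calls against single pairs. Over all tested genes 12.5% were higher and 13.3% lower against replicates 1 and 2, and 5.34% and 5.62% against replicates 3 and 4. Against replicates 1 and 2 and then replicates 3 and 4, JA signalling had 8 higher and 1 lower, then 7 lower, and JA turnover had 5 higher, then 5 lower. Indole glucosinolate synthesis had 10 higher and 1 lower, then 15 lower, and glucosinolate breakdown 7 higher and 1 lower, then 1 higher and 5 lower. Pattern response had 10 higher and 1 lower, then 1 higher and 1 lower, the sulfur list 9 higher and 1 lower, then 1 higher and 3 lower, and nitrate and phosphate status 3 higher and 5 lower, then 2 higher and 1 lower.

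The priming difference was then set beside the same difference in infested plants, which share no library with the controls. Under mites 1570 genes were called (8.14%), and under caterpillars 1139 (5.93%). Of the 2072 genes changed in controls and tested under mites, 690 (33.3%) were called there with the same sign and 12 with the opposite sign. Under caterpillars 728 (35.1%) were called with the same sign and 0 with the opposite sign. Counted from the other side, these made up 44.5% of the genes called under mites and 64% of those called under caterpillars that were also tested in controls. In 473 genes the call had the same sign in all 3 states, with 295 higher and 178 lower. The genes that were higher in controls had a median log2 fold change of 0.42 there, 0.22 under mites and 0.27 under caterpillars. The lower genes had medians of -0.39, -0.12 and -0.25. These genes were chosen by their call in controls, so the smaller medians elsewhere are a description. Across 18801 genes tested in both, which are not independent replicates, the log2 fold changes correlated with Pearson's r = 0.463 between controls and mites, and across 18837 genes with r = 0.55 between controls and caterpillars.

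Most dark and low sugar genes were higher in each of the 3 states. Of the 21, 16 were higher and 1 lower under mites (4.54% of all genes were higher), and 18 were higher under caterpillars (3.02% of all). BT2 had 1.82, 2.26, 3.09 and 0.803 CPM in not-primed and 33.9, 47.0, 48.7 and 52.6 CPM in primed plants under mites (4.55 ± 0.21), in replicate order. Under caterpillars it had 4.83, 4.20, 6.31 and 5.30 CPM without and 37.5, 37.4, 59.0 and 65.3 CPM with priming (3.26 ± 0.20). KMD1 differed by 2.98 ± 0.09 under mites and 2.70 ± 0.12 under caterpillars, and TPS11 by 2.22 ± 0.09 and 1.62 ± 0.14. OXS3, a gene of oxidative stress tolerance, was chosen for a rise in all 3 states, so its recurrence is a condition of the choice. Its values were 1.90 ± 0.12 in controls, 2.83 ± 0.15 under mites and 1.97 ± 0.15 under caterpillars. Heat shock genes were lower in 7 of 14 under mites (3.6% of all genes were lower) and in 8 of 14 under caterpillars (2.91% of all). HSP70 had log2 fold changes of -1.08 ± 0.09 and -0.97 ± 0.11 there. Some other lists, beside the same shares of all genes, are given under mites and then caterpillars. Auxin genes had 3 higher and 1 lower, then 2 higher, and cytokinin genes 1 higher and 1 lower, then 1 lower. Brassinosteroid and gibberellin genes had 3 higher and 2 lower, then 1 higher. Cell expansion genes had 1 higher, then 1 higher and 1 lower. Flavonoid genes had 1 higher and 3 lower, then 2 higher and 1 lower, and senescence genes 2 higher and 1 lower in both.

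Other differences were tested as interactions of priming with infestation, in 1 fit of all 24 libraries. With mites 221 of 20038 genes were called (1.1%), 150 of them changed in controls, and the number called was between 80 and 611 when 1 control library was left out. It was 80 without not-primed replicate 1 or primed replicate 2, 121 without not-primed replicate 2, 607 and 611 without not-primed replicates 3 and 4, and 93 and 103 without primed replicates 1 and 4. It was 111 with not-primed control replicates 3 and 4 only and 2069 with replicates 1 and 2 only. In 56 genes, 45 of them changed in controls, the interaction was called with the same sign in all 3 fits. The interaction subtracts the priming difference of the same control libraries that set the calls in controls. The overlaps of 150 and 45 genes are therefore partly built in and are a description only. With caterpillars edgeR called 0 genes, with 1445 at an unadjusted p under 0.05, and DESeq2 called 10.

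BT1 and BT5 parted under mites. BT1 had 51.8, 82.0, 75.3 and 68.5 CPM in not-primed and 80.4, 79.6, 76.8 and 73.2 CPM in primed plants under mites, where the groups overlapped (0.16 ± 0.10). Its difference was smaller than in controls on the log2 scale (interaction -1.33 ± 0.15, adjusted p = 9.02e-05). BT5 had 14.1, 15.2, 11.4 and 11.4 CPM in not-primed and 100.5, 98.2, 109 and 102 CPM in primed plants under mites (2.98 ± 0.08), a larger difference than in controls (1.57 ± 0.19, adjusted p = 0.000172). P5CS1, ABF3 and CER1, higher in controls, were not higher under mites. P5CS1 had 162, 126, 165 and 192 CPM in not-primed and 162, 155, 180.1 and 184 CPM in primed plants there (0.08 ± 0.09, interaction -1.40 ± 0.26, adjusted p = 0.00941). ABF3 was lower under mites (-0.26 ± 0.07, interaction -0.76 ± 0.12). CER1, a wax alkane synthesis gene, was at -0.04 ± 0.09 there (interaction -0.83 ± 0.15). These 5 interactions were called with the same sign in all 3 fits. They share control libraries with the calls in controls, so a smaller difference under mites is not independent of those calls. Of the 20 ABA and dehydration genes 3 were higher and 4 lower under mites, and 1 higher and 1 lower under caterpillars. Over all tested genes 4.54% were higher and 3.6% lower under mites, and 3.02% and 2.91% under caterpillars.

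**Figure D5:**
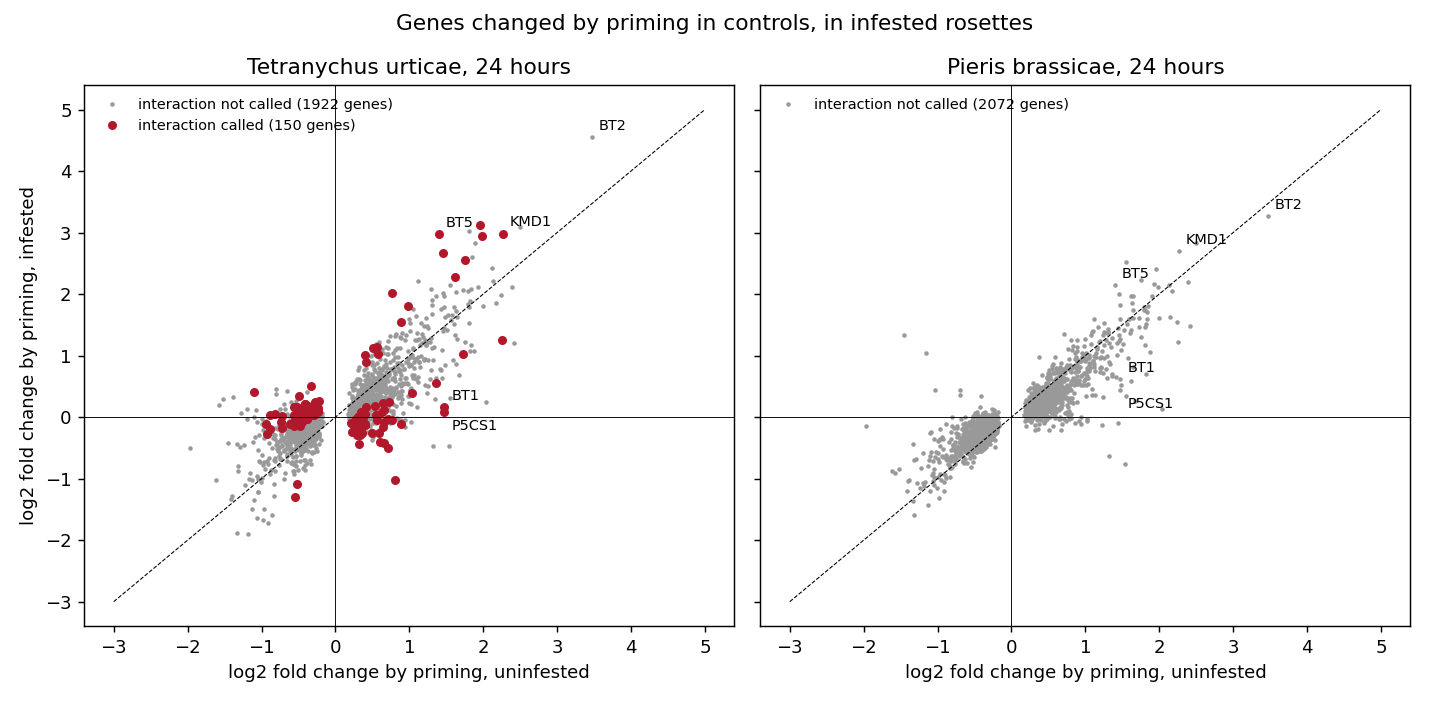
Log2 fold change by priming under mites (left) and caterpillars (right) against that in uninfested controls, for the 2072 genes changed in controls and tested in each state. Red points mark a called interaction and the dashed line marks equal values. On the left 150 points are red and on the right 0, and BT2 stands far up in both panels. The interaction shares control libraries with the calls that chose these genes.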

How the data were processed

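RNA from 24 Arabidopsis rosette samples was sequenced, and the 8 uninfested controls were compared here. Reads were aligned with HISAT2 to TAIR10, per the submitters' processing notes. No source used here names the counting tool, its use of strand or the annotation, so genes that overlap or share near-identical sequence may share reads. The authors deposited raw counts per gene for all samples, and the tests used these counts. They also deposited FPKM values, scaled by gene length and library total, which were used only in an alternative. Their library totals and gene lengths are not stated.

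Counts were fitted with edgeR 4.0.16 in R 4.3.3 (TMM normalization, filterByExpr by group, glmQLFit and glmQLFTest) on the 8 control libraries, with Benjamini-Hochberg adjustment over all tested genes and a threshold of 0.05. Infested plants were fitted in the same way on their own 8 libraries per pest, and interactions in 1 fit of all 24. The SE is the log2 fold change divided by the square root of the F statistic. Library totals of the controls lay between 17798673 and 22084808 counts. Alternatives used DESeq2 1.42.0, limma 3.58.1, RLE scaling, other filters, left-out libraries and either pair of not-primed controls. The limma runs were voom with a weight per group, log2(FPKM + 1) with and without a filter, and log2(FPKM + 0.1) with a filter. The test code was also tested on simulated data.

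Genes named in the text were the 12 largest increases and 12 largest decreases that were called, reached a mean of 5 CPM in either group and did not overlap. Also named were genes with the largest differences against both not-primed pairs or in all 3 states, the leading called members of each of 33 gene lists, the strongest interactions and 12 fixed marker genes. Other list members given were chosen after their values were seen. The members and lists were chosen with earlier results of these data known. Gene symbols and upstream sequences came from RefSeq (TAIR10.1), and no coordinates were taken from the deposited files.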

Additional observations from a re-analysis of the deposited data

Results flagged for a closer look

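In 3 of 206 groups of 4 libraries examined for the named genes, 1 library lay apart from the others by Dixon's test, where chance alone marks about 1 group in 20. ARR6 was at 5.39 CPM in primed control replicate 1, against 7.09 to 7.24 CPM in the other primed controls. MYC4 was at 51.8 CPM in not-primed control replicate 3, against 58.8 to 59.1 CPM in the others of its group. ORA59, an ethylene and JA response factor gene, was at 0.984 CPM in not-primed control replicate 3, against 0.242 to 0.282 CPM.

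For 19 named genes the priming difference under mites differed from that in controls by edgeR's interaction test over 24 libraries. Values are interactions on the log2 scale, positive where the difference was higher under mites. Called with the same sign also when not-primed controls 3 and 4 alone or 1 and 2 alone were used were BT5 (1.57), AT2G20670 (1.15), OEP6 (0.85), KMD1 (0.71), FAD2 (-0.40), PIN3 (-0.37), AT3G20820 (-0.53), ABF3 (-0.76), SULTR3;1 (-0.76), AT2G29670 (-0.81), CER1 (-0.83), BT1 (-1.33) and P5CS1 (-1.40). The calls of AT1G06830 (1.5), AT3G15630 (0.95), AT1G22690 (0.66), UPL5 (-0.36), SOC1 (-0.56) and AT2G44130 (-1.02) were lost with not-primed controls 3 and 4 alone.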

How the results depend on the processing

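Of the 92 named genes called in controls, 92 had the same sign and 64 were called under every one of 22 alternatives that gave a value, and 152 of 2013 values lost the call. Genes higher in controls numbered 615 to 1115 and lower ones 484 to 1299 when 1 library was left out. With not-primed controls 1 and 2 only they numbered 2425 and 2585, and in a fit with the infested libraries 2024 and 2513. With not-primed controls 3 and 4 and the infested libraries in 1 fit they numbered 719 and 651. Leave-one-out counts were 665 to 861 higher and 491 to 790 lower under mites, and 371 to 528 higher and 297 to 541 lower under caterpillars. The interaction with mites called 111 genes with not-primed controls 3 and 4, 2069 with controls 1 and 2, 691 by DESeq2 and 80 to 611 with 1 library left out. The interaction with caterpillars called 9, 486 and 10 in the same 3 settings, 1 without a filter, and 0 to 2 with 1 library left out. The cause of these shifts was not tested.

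Samples share only a replicate number: deviations of same-numbered controls correlated at 0.0349, -0.0413, 0.0548 and 0.0147. With the replicate number as a block, 888 genes were higher and 841 lower.

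Sign changes were seen only among marker genes without a call in the main test. With not-primed controls 1 and 2 only, alone and then with the infested libraries in 1 fit, VSP2 was at 1.73 and 1.71, LOX2 at 1.3 and 1.28, JAZ10 at 0.39 and 0.37, MYC2 at 0.65 and 0.63, PR1 at 1.38 and 1.37, CYP79F1 at 0.41 and 0.40, CYP79B2 at 0.58 and 0.57, and LHCB1.3 at -0.073 and -0.091. With controls 3 and 4 only, ICS1 was at -0.24 in both and PAD3 at -0.69 in both. With the replicate block VSP2 was at 0.37, LOX2 at 0.22, MYC2 at 0.0071 and PR1 at 0.018. With voom weights VSP2 was at 0.40, LOX2 at 0.23, MYC2 at 0.021 and PR1 at 0.70. By limma on log2(FPKM + 1), with or without a filter, VSP2 was at 0.38, LOX2 at 0.21, MYC2 at 0.000885, PR1 at 0.21 and LHCB1.3 at -0.000309. With a pseudocount of 0.1 they were at 0.39, 0.21, 0.00767, 0.58 and -0.000309. With 1 library left out, values ran from -0.57 to 0.51 for VSP2, -0.49 to 0.36 for LOX2, -0.39 to 0.11 for MYC2, -0.77 to 0.0949 for PR1, -0.14 to 1.05 for PAD3, -0.25 to 0.10 for CYP79F1, -0.46 to 0.00336 for CYP79B2 and -0.0238 to 0.0727 for LHCB1.3.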
